A study of Mus musculus with 9 samples.

Results

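Foxi1, the genes of the vacuolar proton pump (V-ATPase) and the carbonic anhydrase genes were followed across differentiated mammary luminal cells and mammary organoids. The pump and anhydrase genes were chosen by symbol alone: every gene named Atp6v0, Atp6v1, Atp6ap1, Atp6ap2 or Car with a number, if a probe set measured it alone. This gave 39 of 18194 genes, namely Foxi1, 22 V-ATPase genes and 16 carbonic anhydrase genes, with 78 probe sets. Foxi1 itself was chosen because it was among the largest increases of organoids over luminal cells, so its values in those comparisons are given as a description.

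The study asked whether forced YAP turns differentiated luminal cells into cells that behave as mammary stem cells (MaSCs). RNA was measured on 9 Affymetrix arrays in 3 groups of 3 biological replicates, lettered A, B and C. Organoids from yMaSCs came from luminal differentiated (LD) cells transduced with doxycycline-inducible YAP and rtTA on lentiviral vectors. These cells were treated with doxycycline to express YAP before the organoid culture. Organoids from MaSCs came from sorted, unconverted MaSCs, and both kinds grew in pure Matrigel under medium with EGF, bFGF, heparin, noggin and R-spondin1, without doxycycline. LD cells were sorted as EpCAM-high, CD49f-low, CD61-negative cells and were measured fresh, without culture. The mice were virgin C57BL/6J animals unless the study said otherwise, and the sources used here do not give the mice behind each array. Organoids were measured as whole cultures, whereas LD cells are 1 sorted fraction. Cell type and culture therefore cannot be told apart in any comparison with LD cells. LD replicate B stood apart from the other LD arrays. Its average log2 value was 5.99 for endothelial markers (4.25 and 4.34 in LD replicates A and C) and 7.93 for fibroblast markers (6.58 and 6.18). For adipocyte markers it was 4.92 (3.59 and 3.65), mainly through Fabp4 (10.92, against 4.2 and 3.7). Results that moved without LD replicate B are given both ways.

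The V-ATPase is a rotary pump with a V1 sector, which splits ATP in the cytosol, and a membrane-bound V0 sector, which carries protons. Widely expressed subunit isoforms serve lysosomes and endosomes in most cells, and a few restricted isoforms serve acid-secreting cells such as kidney intercalated cells and osteoclasts. Carbonic anhydrases turn carbon dioxide and water into bicarbonate and a proton, which such cells use as the source of the acid. Foxi1 is a forkhead transcription factor of kidney intercalated cells, the endolymphatic sac of the inner ear, narrow and clear cells of the epididymis and airway ionocytes. In mice it is needed in these tissues for restricted pump subunits, such as B1 (Atp6v1b1) and a4 (Atp6v0a4), and for anion exchangers such as pendrin (Slc26a4).

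The bases just before the start of Foxi1 and of 3 pump and anhydrase genes are shown because they are the genes the results turn on and because 3 of them hold a searched motif. Each is the 250 bases before the RefSeq start in GRCm38.p6, on the gene's strand, 5′ to 3′, at chr11:34208090-34208339 (minus strand) for Foxi1, chr6:83742767-83743016 (plus) for Atp6v1b1, chr16:44139260-44139509 (minus) for Atp6v1a and chr4:43506776-43507025 (plus) for Car9. The windows of Foxi1, Atp6v1b1 and Car9 adjoin the outer end of the gene. That of Atp6v1a lies before an inner start, since the RefSeq span of this gene reaches to 44139702 on chr16. Capitals mark the motif, which was searched on both strands.
Foxi1: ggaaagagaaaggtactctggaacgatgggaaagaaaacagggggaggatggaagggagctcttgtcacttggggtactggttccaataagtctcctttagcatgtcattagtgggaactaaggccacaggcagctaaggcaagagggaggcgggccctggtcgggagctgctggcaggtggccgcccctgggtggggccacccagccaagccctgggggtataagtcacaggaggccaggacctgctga
Atp6v1b1: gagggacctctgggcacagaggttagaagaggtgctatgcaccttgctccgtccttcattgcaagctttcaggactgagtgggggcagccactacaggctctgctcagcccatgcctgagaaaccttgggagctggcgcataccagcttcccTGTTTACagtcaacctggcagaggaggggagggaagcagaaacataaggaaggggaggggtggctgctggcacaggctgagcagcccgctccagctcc
Atp6v1a: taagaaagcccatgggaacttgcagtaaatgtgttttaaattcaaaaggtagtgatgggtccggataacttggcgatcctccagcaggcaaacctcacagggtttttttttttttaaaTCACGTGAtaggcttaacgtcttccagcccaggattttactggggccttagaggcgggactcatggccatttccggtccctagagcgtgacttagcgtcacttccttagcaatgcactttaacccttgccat
Car9: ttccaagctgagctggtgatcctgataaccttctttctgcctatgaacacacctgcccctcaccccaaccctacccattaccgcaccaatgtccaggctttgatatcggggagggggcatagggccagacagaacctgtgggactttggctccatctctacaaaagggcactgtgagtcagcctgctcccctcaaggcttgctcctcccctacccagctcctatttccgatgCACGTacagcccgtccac
In Atp6v1b1 the capitals are a forkhead core, TGTTTAC, that begins 98 bases before the start. That core lay in 1040 of 32851 RefSeq promoters of this length (3.17%) and, among the 28 members with a promoter in the table, also before Car5a. In Atp6v1a the capitals are the E-box TCACGTGA, 132 bases before that inner start and so within the gene. It is of the kind bound by TFEB and MITF, and 258 promoters held it (0.785%). In Car9 they are the reverse complement of ACGTG, the core of the hypoxia response element, 18 bases before the start. ACGTG lies within TCACGTGA and was found in 5444 promoters (16.6%) and in those of 8 members. The Foxi1 window held none of these letters. A match is a description of these letters only, since no binding was measured.

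Foxi1 was high in both kinds of organoid and low in LD cells. Its log2 values were 10.93, 11.60 and 10.53 in organoids from yMaSCs (replicates A, B and C), 11.11, 11.85 and 10.62 in organoids from MaSCs, and 3.61, 5.40 and 4.44 in LD cells. The lowest organoid array stood far above LD replicate B, the highest LD array, so organoids and LD cells did not overlap. The mean difference from LD cells was 6.54 log2 in organoids from yMaSCs and 6.71 in organoids from MaSCs, or 92.8-fold and 105-fold, which ranked 5 of 18194 genes in each comparison. Without LD replicate B the differences were 6.995 and 7.17 log2. Foxi1 lies on chromosome 11 and had 1 probe set. In LD replicate A its value was close to the lower quartile of all probe sets on an array. That quartile was 3.47 to 3.59 log2 across the 9 arrays, so these differences are against a dim signal. In bulk RNA, a few cells with much Foxi1 and many cells with little cannot be told apart, and neither can fewer cells of a type and less RNA per cell.

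**Figure D1:**
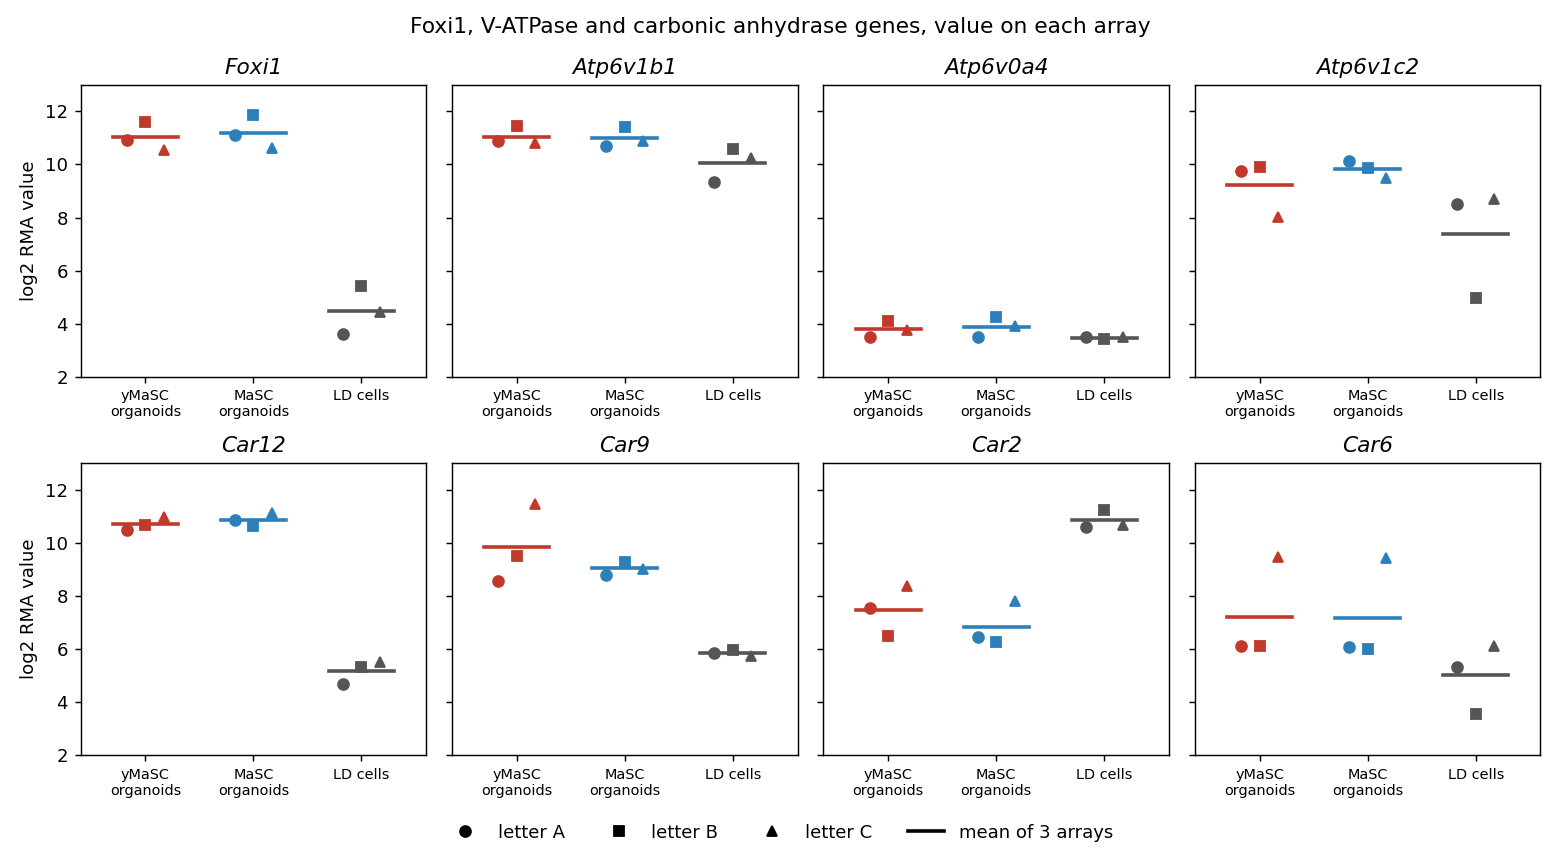
Log2 RMA value (y axis) of 8 genes on each of the 9 arrays, for organoids from yMaSCs, organoids from MaSCs and LD cells (x axis); symbols give the letter A, B or C and the bar is the mean of 3 arrays. Foxi1 and Car12 were high in all 6 organoid arrays and low in LD cells, Car2 was the reverse, Atp6v0a4 stayed near 4 or below on most arrays, and Car6 was high only on the 2 organoid arrays of letter C.

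The question for the pump genes was whether they were higher where Foxi1 was. Of the 22 V-ATPase genes, 10 were higher and 0 lower in organoids from yMaSCs than in LD cells, and 9 were higher and 0 lower in organoids from MaSCs (limma, adjusted p under 0.05 over all genes). Among all 18194 genes, 35.9% passed in the first comparison (21.6% higher, 14.3% lower) and 37.3% in the second (22.1% higher, 15.2% lower). The median difference of the V-ATPase genes was 0.41 log2 in organoids from yMaSCs and 0.39 in organoids from MaSCs, against -0.01 and -0.02 over all genes. Both comparisons used the same LD arrays, so they are not separate evidence. Bringing the arrays to a common median moved the median of all genes by -0.26 and -0.25 log2, and the counts became 6 higher and 2 lower, and 6 higher and 1 lower. The genes that then passed as lower were Atp6ap2 in both comparisons and Atp6v0a2 in organoids from yMaSCs. Of all genes that passed at a common median, 28.8% and 30% were higher, against 60.1% and 59.3% as deposited.

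By sector, 7 of 12 V1 genes and 3 of 8 V0 genes were higher in organoids from yMaSCs, and 6 of 12 and 3 of 8 in organoids from MaSCs. Neither of the 2 accessory genes passed. Outside the list of restricted isoforms, 9 of 14 genes were higher in each comparison, with a median of 0.59 log2 in organoids from yMaSCs and 0.56 in organoids from MaSCs. The 14 leave out Atp6v0a2, a broadly expressed subunit that the restricted list also held and that passed in neither comparison (-0.42 and -0.25 log2). Of the 9 restricted isoforms listed 8 were measured, and 1 (Atp6v1b1) passed in organoids from yMaSCs and 0 in organoids from MaSCs. In organoids from MaSCs 2 of the 8 had an unadjusted p under 0.05 (limma). That is a smaller share than over all genes, where 8301 of 18194 had one.

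Atp6v1a, the catalytic A subunit that splits ATP, had the largest difference among the V-ATPase genes that passed. It stood at 11.52, 11.54 and 11.00 log2 in organoids from yMaSCs, 11.44, 11.62 and 11.17 in organoids from MaSCs, and 9.74, 9.93 and 9.75 in LD cells. All organoid arrays were above all LD arrays. The difference was 1.55 ± 0.17 log2 (SE, adjusted p = 0.000204) in organoids from yMaSCs and 1.60 ± 0.17 (adjusted p = 0.000156) in organoids from MaSCs, or 2.92-fold and 3.04-fold, and its other probe set shared the call.

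The stator subunits of V1, which hold its head still against the membrane sector, were higher as well. Atp6v1c1, the widespread C isoform, read 10.89, 10.65 and 10.75 log2 in organoids from yMaSCs, 10.86, 10.56 and 10.61 in organoids from MaSCs and 9.60, 9.47 and 9.60 in LD cells. These groups did not overlap, and the differences were 1.21 ± 0.12 and 1.12 ± 0.12 log2 (adjusted p = 8.9e-05 and 0.000115). Atp6v1e1, the widespread E isoform, was 12.31, 12.53 and 11.94 in organoids from yMaSCs, 12.43, 12.51 and 12.05 in organoids from MaSCs and 10.99, 11.34 and 11.35 in LD cells. Its differences were 1.03 and 1.10 log2 (adjusted p = 0.00274 and 0.00185), although 2 of its 4 probe sets did not pass. Atp6v1g1, the widespread G isoform, had 12.62, 12.58 and 12.21 in organoids from yMaSCs, 12.70, 12.54 and 12.29 in organoids from MaSCs and 11.31, 11.71 and 11.40 in LD cells. Again no organoid array reached down to an LD array, with differences of 0.997 and 1.04 log2 (adjusted p = 0.00167 and 0.00128).

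Smaller differences passed for Atp6v0e, Atp6v0d1, Atp6v1d, Atp6v0b and Atp6v1h, from 0.40 to 0.91 log2 in organoids from yMaSCs and from 0.39 to 0.96 in organoids from MaSCs. Atp6v0d1, the widespread d subunit that couples V0 to the central stalk, differed by 0.87 and 0.91 log2. For Atp6v0b, a proton-carrying ring subunit, the call in organoids from MaSCs was at the threshold (0.39 log2, adjusted p = 0.0490). Another of its 3 probe sets was higher by 0.65 and 0.67 log2 and passed in each comparison. The last one, at 0.30 and 0.22 log2, passed in neither. For Atp6v1h, the regulatory H subunit, another probe set went the other way (-0.67 and -0.74 log2). Atp6v1d, Atp6v0b and Atp6v1h no longer passed in either comparison with the arrays at a common median.

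Not every widespread subunit was higher. Atp6v1b2, the widespread B isoform and the partner of Atp6v1a in the catalytic head, read 9.87, 9.94 and 10.06 log2 in organoids from yMaSCs, 9.84, 10.02 and 9.77 in organoids from MaSCs and 10.14, 9.94 and 9.82 in LD cells. The groups overlapped, and the difference was -0.01 log2 (95% interval -0.28 to 0.26) in organoids from yMaSCs and -0.09 (-0.36 to 0.18) in organoids from MaSCs. Atp6v1f, of the central stalk, and Atp6v0a1 differed by 0.11 to 0.16 log2 and did not pass. Nor did the broadly expressed Atp6v0a2, given below with the restricted list. Atp6ap2, the prorenin receptor and a pump assembly factor, was -0.19 and -0.22 log2 (adjusted p = 0.197 and 0.124). Every organoid array was below every LD array, but yMaSC replicate C only just (11.79, against 11.80 in LD replicate C). Another of its 3 probe sets differed by -0.05 and -0.13 log2, with yMaSC replicate C above all LD arrays. The last one differed by -0.20 and -0.23 log2. Atp6ap1 (Ac45), the other accessory subunit, was 0.42 and 0.40 log2 (adjusted p = 0.0716 and 0.0818).

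**Figure D2:**
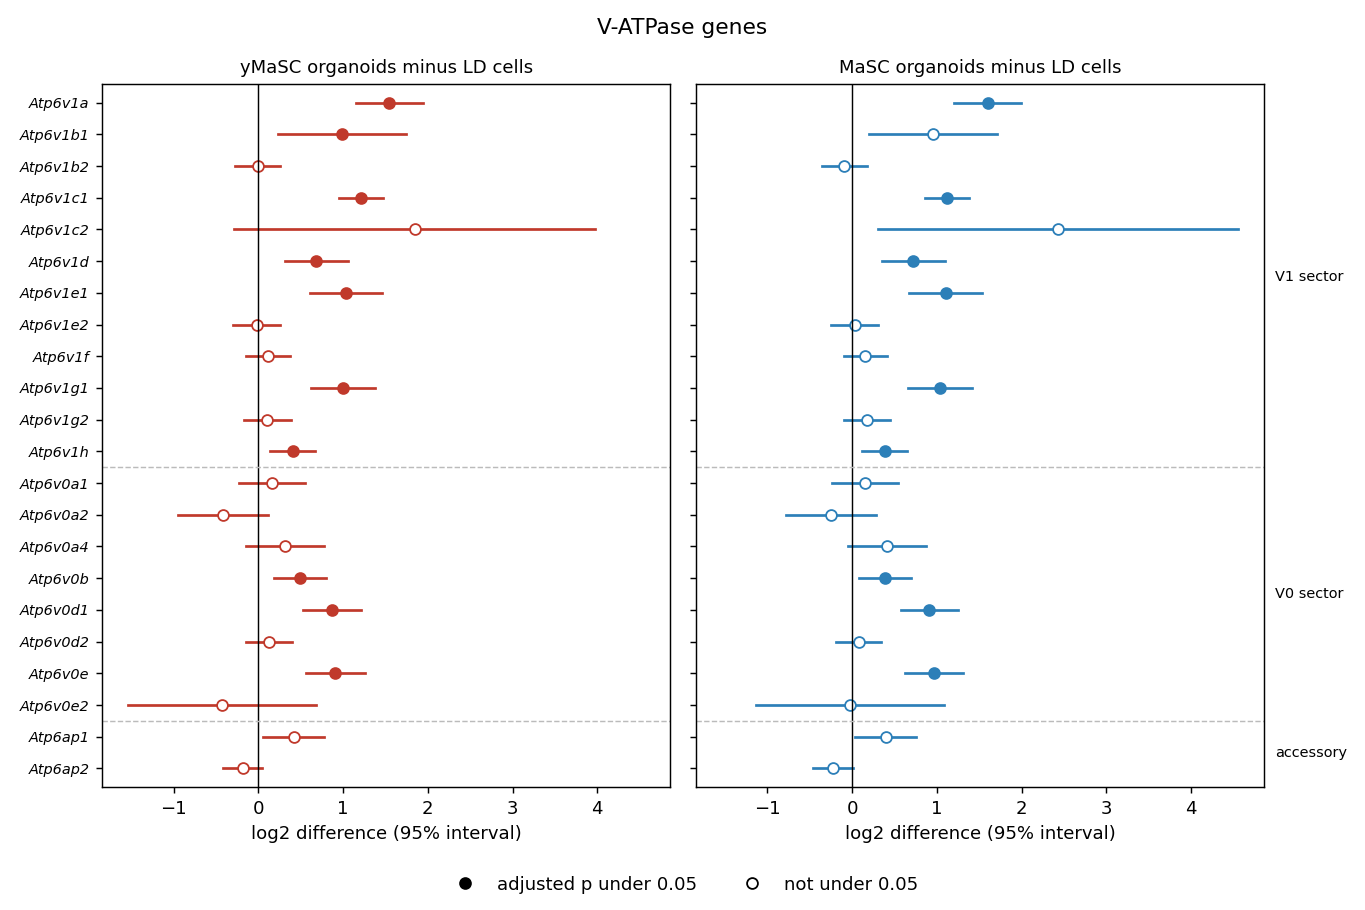
Log2 difference from LD cells (x axis, with 95% interval) of each of the 22 V-ATPase genes (y axis, by sector) in organoids from yMaSCs (left) and organoids from MaSCs (right); filled points had an adjusted p under 0.05. The filled points all lie above 0, with Atp6v1a furthest right among them, while Atp6v1b2, Atp6v1e2, Atp6v1g2 and Atp6v0d2 sit near 0.

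The restricted isoforms, which include the subunits known to depend on Foxi1 in mouse kidney and epididymis, gave a mixed picture. Atp6v1b1, the B1 isoform of intercalated cells and ionocytes, read 10.88, 11.44 and 10.82 log2 in organoids from yMaSCs, 10.71, 11.43 and 10.88 in organoids from MaSCs and 9.34, 10.59 and 10.24 in LD cells. The lowest organoid arrays were only slightly above LD replicate B, and the gene was well above the upper quartile of every array, 7.39 to 7.59 log2, in LD cells already. Its difference was 0.99 ± 0.33 log2 (adjusted p = 0.0457) in organoids from yMaSCs and 0.95 ± 0.33 (adjusted p = 0.0516) in organoids from MaSCs, close to 2-fold and on either side of the threshold. The call in organoids from yMaSCs was lost without LD replicate A (0.63 log2, adjusted p = 0.114), LD replicate C (0.0718) or yMaSC organoid replicate A, B or C (0.0778, 0.152 and 0.0570), and also without MaSC organoid replicate A or C (0.0578 and 0.0598). It was lost in 12 of 20 alternatives in all, among them a common median (0.73 log2, adjusted p = 0.0957), quantile normalization (0.0508) and cyclic loess (0.0734). Without LD replicate B both comparisons passed (1.26 and 1.22 log2, adjusted p = 0.0202 and 0.0224).

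Atp6v0a4, the a4 isoform found beside B1 in intercalated cells, stayed dim. It was 3.49, 4.09 and 3.76 log2 in organoids from yMaSCs, 3.51, 4.24 and 3.89 in organoids from MaSCs and 3.49, 3.40 and 3.51 in LD cells, where all 3 values lay below the lower quartile of their array. The A replicates of both organoids were level with LD cells and the B replicates were the highest. The differences of 0.31 and 0.41 log2 did not pass (adjusted p = 0.270 and 0.147).

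Atp6v1c2, the C isoform of kidney and lung, varied widely within groups. Organoids from yMaSCs had 9.77, 9.91 and 8.02 log2, organoids from MaSCs 10.13, 9.85 and 9.48, and LD cells 8.50, 4.97 and 8.70. LD replicate B was far below the other LD arrays, and yMaSC replicate C overlapped them. The differences were 1.84 and 2.43 log2 (adjusted p = 0.164 and 0.0725), and without LD replicate B they were 0.63 and 1.22 (adjusted p = 0.408 and 0.115). Organoids from MaSCs passed without LD replicate C (3.09 log2, adjusted p = 0.0463), with array weights (1.97, 0.0420) and with genes above the median only (2.43, 0.0478).

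The remaining genes of the restricted list did not pass. Atp6v0d2, the d2 isoform of osteoclasts and intercalated cells, lay below the lower quartile on all 9 arrays, at 2.53 to 2.94 log2. Atp6v1e2, a testis isoform, and Atp6v1g2, a neural isoform, stayed between 3.78 and 4.19 log2 on every array. Atp6v0e2 was 8.71, 8.60 and 6.73 in organoids from yMaSCs, 8.80, 8.25 and 8.20 in organoids from MaSCs and 8.36, 8.11 and 8.86 in LD cells, so only yMaSC replicate C stood apart. Atp6v0a2, a broadly expressed a subunit that the list also held, differed by -0.42 and -0.25 log2 (adjusted p = 0.209 and 0.447), and in organoids from yMaSCs it passed as lower at a common median (-0.67, adjusted p = 0.0479) and after cyclic loess (-0.66, 0.0404). Atp6v1g3 was listed and not measured by a probe set of 1 gene.

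Carbonic anhydrases went both ways. Of 16 genes, 4 were higher and 1 lower in organoids from yMaSCs, and 4 were higher and 2 lower in organoids from MaSCs, with a median difference of 0.13 log2 in each. These shares are near those of all genes given above, so the family as a whole is described by its members. The higher ones were Car12, Car9, Car5b and Car11 in each comparison, and the lower ones were Car2 in each and Car13 in organoids from MaSCs.

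Car12, a membrane enzyme with its active site outside the cell, changed almost as much as Foxi1. It read 10.47, 10.68 and 10.98 log2 in organoids from yMaSCs, 10.87, 10.64 and 11.12 in organoids from MaSCs and 4.69, 5.30 and 5.51 in LD cells. The organoid arrays lay within a narrow range, far above all LD arrays. The difference was 5.54 ± 0.23 log2 (adjusted p = 2.95e-06) in organoids from yMaSCs and 5.71 ± 0.23 (adjusted p = 2.21e-06) in organoids from MaSCs, or 46.6-fold and 52.3-fold, which ranked 7 and 8 of 18194 genes. Its other 2 probe sets were also higher, by 0.80 and 1.06 log2 in organoids from yMaSCs and by 1.37 and 1.18 in organoids from MaSCs, and 1 of them did not pass.

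Car9, the membrane enzyme best known as a target of the hypoxia factor, was higher as well. Its values were 8.56, 9.51 and 11.46 log2 in organoids from yMaSCs, 8.80, 9.27 and 9.02 in organoids from MaSCs and 5.83, 5.95 and 5.72 in LD cells. No group of organoids overlapped LD cells, and yMaSC replicate C was the highest array by a wide margin. The difference was 4.01 ± 0.60 log2 (adjusted p = 0.000919) in organoids from yMaSCs and 3.20 ± 0.60 (adjusted p = 0.00288) in organoids from MaSCs. Without yMaSC replicate C the first was 3.20 log2 (adjusted p = 0.00012).

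Car5b, a mitochondrial enzyme, was 7.71, 7.42 and 7.14 log2 in organoids from yMaSCs, 7.41, 7.39 and 6.95 in organoids from MaSCs and 5.91, 4.78 and 6.44 in LD cells. All organoid arrays were above LD cells, by 1.71 and 1.54 log2 on average (adjusted p = 0.00680 and 0.0110). LD replicate B was the lowest, and without it the differences were 1.25 and 1.08 log2. Car11, a secreted relative without enzyme activity, differed by 0.91 and 0.89 log2 (adjusted p = 0.0172 and 0.0184).

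Car2, the fast cytosolic enzyme that supplies acid to the pump in intercalated cells and osteoclasts, was much lower in organoids. It read 7.53, 6.49 and 8.37 log2 in organoids from yMaSCs, 6.44, 6.26 and 7.80 in organoids from MaSCs and 10.61, 11.25 and 10.67 in LD cells. Every organoid array was below every LD array, and the C replicates were the highest organoids. The difference was -3.38 ± 0.52 log2 (adjusted p = 0.00114) in organoids from yMaSCs and -4.01 ± 0.52 (adjusted p = 0.000425) in organoids from MaSCs. Car13, another cytosolic enzyme, was 6.69, 6.67 and 8.16 in organoids from yMaSCs, 6.50, 6.86 and 7.05 in organoids from MaSCs and 7.59, 8.56 and 7.87 in LD cells. The difference was -0.83 log2 (adjusted p = 0.154) in organoids from yMaSCs, where replicate C overlapped LD cells, and -1.20 (adjusted p = 0.0477) in organoids from MaSCs. Its call in organoids from MaSCs was lost without any 1 array of LD cells or of MaSC organoids, or without yMaSC organoid replicate A or B (adjusted p = 0.0506 to 0.143), and organoids from yMaSCs passed without their replicate C (-1.33 log2, adjusted p = 0.00778).

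Markers of other cells moved between these groups too. The 10 immune markers averaged 4.32 to 4.46 log2 in organoids from yMaSCs, 4.38 to 4.62 in organoids from MaSCs and 6.38 to 7.04 in LD cells, and all 10 were lower in organoids. Luminal markers (9 of 10 measured) averaged 10.53 to 11.00, 10.42 to 11.34 and 12.05 to 12.24, in the same order of groups. Of these, 7 were lower in each comparison, Gata3 was higher (1.25 and 1.52 log2) and Foxa1 did not pass. Basal markers (8) averaged 8.20 to 8.92, 8.05 to 9.68 and 5.22 to 5.57. The 7 osteoclast and macrophage markers averaged 4.51 to 4.97, 4.51 to 4.58 and 5.08 to 5.22, and 3 of 6 erythroid markers were measured and averaged 3.66 to 4.12 on all arrays. The part of these cells in the lower Car2 or in the pump genes was not tested. Without LD replicate B, the counts were 10 V-ATPase genes higher in each comparison and 5 carbonic anhydrase genes passing in each. The share of all genes passing in that fit is not given here. In that fit Car12 differed by 5.61 and 5.78 log2, and the difference of Car2 was -3.18 and -3.81 log2.

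Secreted Car6 followed the letter more than the group. It was 6.09, 6.09 and 9.46 log2 in organoids from yMaSCs, 6.07, 6.0 and 9.44 in organoids from MaSCs and 5.33, 3.55 and 6.12 in LD cells. Both C organoids were far above the A and B organoids, which were level with LD replicate C. The differences from LD cells were 2.21 and 2.17 log2 (adjusted p = 0.193 and 0.197), and without both C organoids 1.09 and 1.04. By the probe sets used, Car1, Car3, Car4, Car5a and Car10 stayed between 2.65 and 4.11 log2 on all arrays. Another Car3 probe set read 6.13 in LD replicate B, against 3.26 and 3.09 in LD replicates A and C. Car3 is an abundant adipocyte protein, and that array also had the highest LD average for adipocyte markers. That average rested mainly on Fabp4 (10.92 in LD replicate B, 4.2 and 3.7 in A and C). Adipoq was 3.28 in LD replicate B, against 2.8 and 3.16, so the source of this Car3 signal was not settled. In organoids the other Car3 probe set stayed between 2.71 and 3.09 log2. Car7, Car8, Car14 and Car15 did not pass either.

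**Figure D3:**
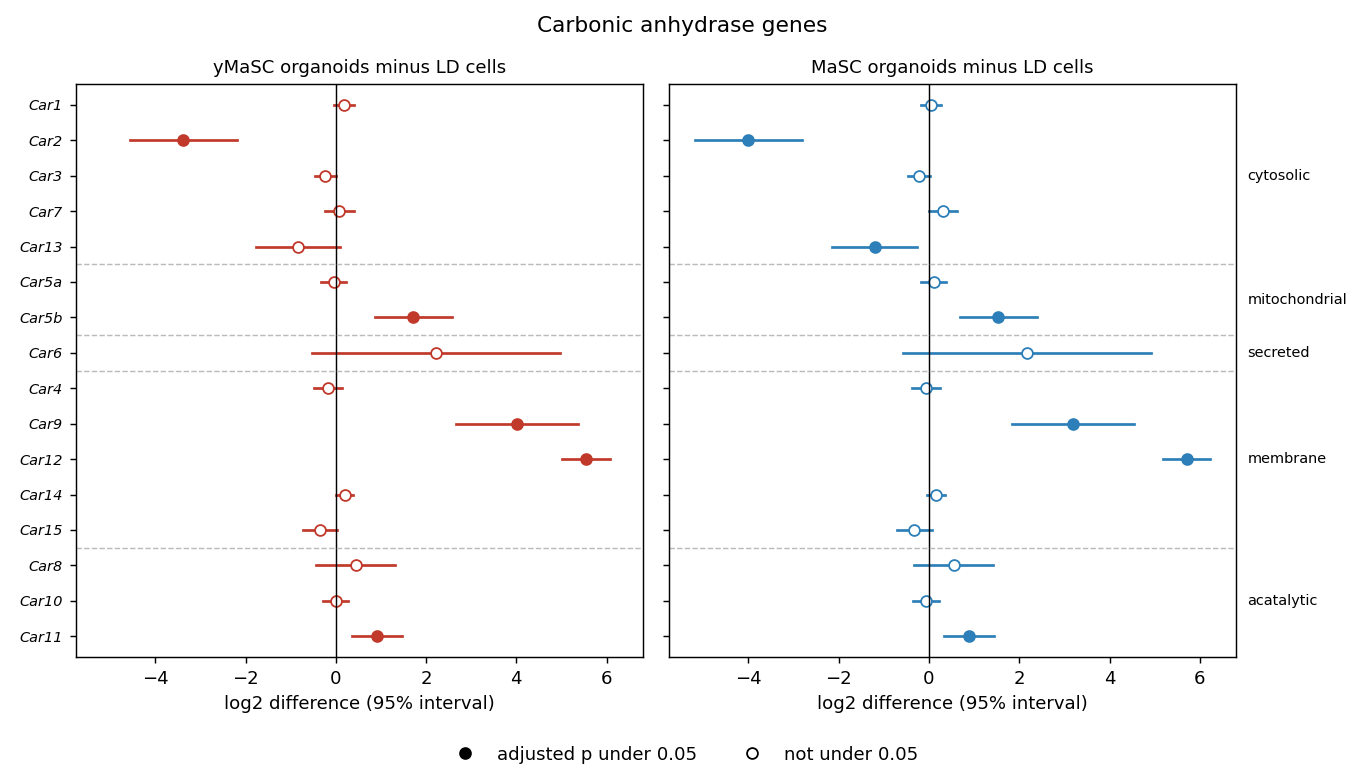
Log2 difference from LD cells (x axis, with 95% interval) of each of the 16 carbonic anhydrase genes (y axis, by place in the cell) in organoids from yMaSCs (left) and organoids from MaSCs (right); filled points had an adjusted p under 0.05. Car12 and Car9 lie furthest to the right and Car2 furthest to the left, at -3.38 and -4.01.

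Organoids from yMaSCs and organoids from MaSCs were then set against each other, a comparison that played no part in choosing the genes. Of the 39 members, 0 passed (limma), as did 0% of all genes. At an unadjusted p under 0.05, 0 V-ATPase and 0 carbonic anhydrase genes passed, against 104 of all genes. Foxi1 averaged 11.02 ± 0.54 log2 in organoids from yMaSCs and 11.19 ± 0.62 in organoids from MaSCs (SD, n = 3 each), a difference of -0.17 with a 95% interval of -1.28 to 0.93. That interval holds the spread between letters, which pair the organoids. With the letter as a block in the 6 organoid arrays, the Foxi1 interval was -0.37 to 0.02 and again 0 members passed. In the paired fit the interval lay within 1 log2 of 0 for 20 of 22 V-ATPase genes and 13 of 16 carbonic anhydrase genes, and for 17857 of all genes. Car2 was the 1 member with an unadjusted p under 0.05, as 596 of all genes had. Its difference was 0.63 log2 (interval 0.20 to 1.06, adjusted p = 0.964), with organoids from yMaSCs above organoids from MaSCs in each letter. For Car9 the paired interval ran from -0.49 to 2.12, so a difference within that range was not excluded. The 2 kinds of organoid were far apart only in letter C (11.46 log2 from yMaSCs, 9.02 from MaSCs). They were close in A (8.56 and 8.80) and in B (9.51 and 9.27).

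The letters were compared among the organoids, again without the contrast that chose Foxi1. Across the 6 organoid arrays, 6 of 39 members differed by letter (limma F test, adjusted p under 0.05), against 5.52% of all genes. They were Foxi1 (adjusted p = 0.0130), Atp6v1b1 (0.0460), Atp6v0a4 (0.0433), Car2 (0.0321), Car6 (0.00118) and Car8 (0.0321). Foxi1, Atp6v1b1 and Atp6v0a4 were each highest in the B replicate of both kinds of organoid. Car2, Car6 and Car8, an enzyme-dead relative, were each highest in the C replicate of both. The letter calls need all 6 organoid arrays, since without any 1 of them a letter keeps a single array. They could therefore not be checked by leaving out arrays, and the labels do not say what arrays of 1 letter share.

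Genes that accompany Foxi1 in intercalated cells and ionocytes but lie outside both families were mostly not called. Of 25 listed genes 23 were measured, and 2 were higher and 2 lower in organoids from yMaSCs, and 2 higher and 4 lower in organoids from MaSCs. Over all genes 21.6% and 22.1% were higher and 14.3% and 15.2% lower, so the lower calls were near that share and the higher ones below it. The list's median difference was -0.12 and -0.10 log2. Avpr1a, a vasopressin receptor of intercalated cells, was 6.74, 7.49 and 6.24 log2 in organoids from yMaSCs, 6.95, 7.52 and 5.94 in organoids from MaSCs and 3.77, 3.67 and 3.37 in LD cells. Its differences were 3.22 and 3.20 log2 (adjusted p = 0.000441 and 0.000423) with no overlap. Parm1 was higher by 1.46 and 1.60 log2. Slc26a4 (pendrin) read 3.59 to 3.79 in organoids from yMaSCs, 3.75 to 3.79 in organoids from MaSCs and 3.79 to 3.98 in LD cells, and did not pass. Rhbg, an ammonia channel, was lower by -1.04 and -1.07 log2, and Bsnd (barttin, a chloride channel subunit) by -0.43 and -0.41. Slc4a9 and Tfcp2l1, a transcription factor of intercalated cells, were lower only in organoids from MaSCs by this test (-0.41 and -0.80 log2), and the difference between the 2 kinds of organoid did not pass for either.

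Genes that assemble or regulate the pump, and genes of the lysosome it acidifies, were measured beside it. Of 12 companions measured of 14 listed, 7 were higher and 1 lower in each comparison, against 21.6% and 22.1% of all genes higher and 14.3% and 15.2% lower. The largest increases were Oxr1 (1.30 and 1.42 log2), Ccdc115 (1.22 and 1.13), an assembly factor, and Tmem9 (1.05 and 1.19), and Dmxl2, a subunit of the complex that reassembles the pump, was lower (-2.15 and -2.23). Dmxl1, its relative in that complex, was higher by 0.57 and 0.67 log2. Tcirg1, the a3 subunit of osteoclasts whose symbol lies outside the rule, differed by 0.14 and 0.16 log2 and did not pass.

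Of 20 lysosome genes measured, 14 were higher and 3 lower in organoids from yMaSCs, and 13 were higher and 2 lower in organoids from MaSCs, with medians of 0.70 and 0.64 log2, beside the same shares of all genes. The largest increases were Hexa (1.93 and 1.80 log2), Cln3 (1.46 and 1.60) and Ctsd (1.26 and 1.40), which encode a hexosaminidase subunit, a membrane protein and a protease of the lysosome. Sqstm1, an autophagy receptor, was lower (-1.18 and -1.44). Of the 4 transcription factors that drive such genes, Mitf (2.19 and 2.21 log2) and Tfeb (0.40 and 0.49) were higher, Tfe3 (-0.76 and -0.77) was lower and Tfec did not pass.

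**Figure D4:**
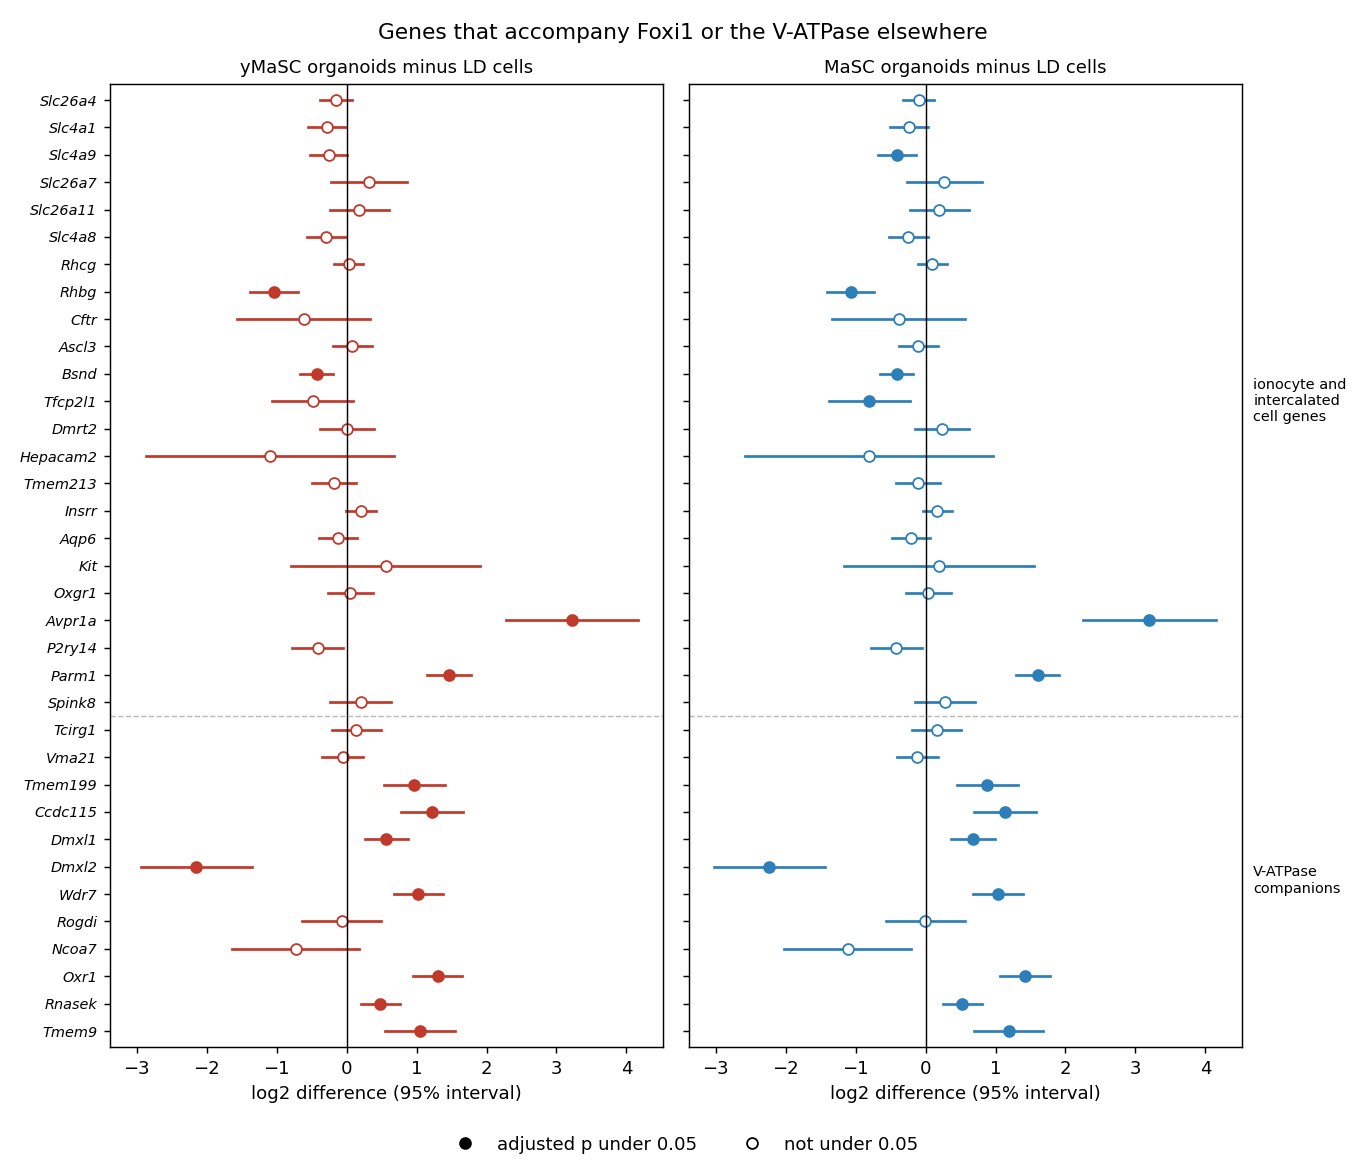
Log2 difference from LD cells (x axis, with 95% interval) of 23 genes that accompany Foxi1 in intercalated cells or ionocytes and of 12 V-ATPase companions (y axis) in organoids from yMaSCs (left) and organoids from MaSCs (right); filled points had an adjusted p under 0.05. In the upper block only Avpr1a and Parm1 stand above 0 as filled points, whereas 7 of 12 companions do.

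Bicarbonate, anion and sodium-proton exchangers, gathered by symbol after the other lists, hold the transporters that would carry what a carbonic anhydrase makes. Their counts were few and near the shares of all genes (21.6% and 22.1% higher, 14.3% and 15.2% lower), so only single members are described. In the Slc4a family 2 of 9 genes were higher in each comparison and 1, Slc4a9, was lower in organoids from MaSCs. The higher ones were Slc4a4, a sodium bicarbonate cotransporter (3.07 and 2.50 log2), and Slc4a2, an anion exchanger (0.84 and 1.05). In the Slc26a family 1 of 10 was higher in each, Slc26a2, a sulfate transporter (3.13 and 3.22 log2), and Slc26a1 was lower in organoids from MaSCs (-0.40 log2, adjusted p = 0.0318). Of 7 Slc9a sodium-proton exchangers, 2 were lower in each, Slc9a7 (-1.70 and -1.67) and Slc9a5 (-1.10 and -1.07).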

How the data were processed

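Values were the log2 values that the authors deposited after RMA (background correction, normalization and probe summary; its version and settings are not given in the sources used here). Precision was limited by the number of arrays. Of 45101 probe sets, 34958 had 1 gene in the array annotation, 932 several and 9211 none. Each of 18194 genes was given its probe set with the highest mean over the 9 arrays, all 39 members matched RefSeq, and promoters came from RefSeq GRCm38.p6. With R 4.3.3 and limma 3.58.1, the 3 groups were fitted together with an empirical Bayes spread, and p was adjusted by Benjamini-Hochberg over all genes without a filter. The letter was tested in the 6 organoid arrays with the kind of organoid as a block. The fit was tested on simulated data. Alternatives were other scalings, spreads, weights, probe set rules, filters, letter blocks and leaving out arrays.

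Same-letter organoids deviated together over all genes (r = 0.607, 0.611 and 0.649 for A, B and C), and LD cells did not share the letter's deviations (r from -0.046 to 0.045). The members and lists were chosen with earlier results of these data known. Named members were Foxi1, those that passed with a difference of 1 log2 or more, the restricted isoforms, and Car2, Car4, Car9 and Car12. From other lists up to 4 of the largest that passed were named. Other named genes were chosen after their values were seen.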

Additional observations from a re-analysis of the deposited data

How the results depend on the processing

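Over 20 alternatives each, the V-ATPase counts stayed within 7 to 11 in organoids from yMaSCs and 7 to 12 in organoids from MaSCs. These counts add higher and lower calls. At a common median the higher calls alone, given above, were fewer than these ranges show. Those of carbonic anhydrases stayed within 4 to 8 in each. The share of all genes passing in the same fits is not given here. With the arrays at a common median, 8 carbonic anhydrases passed in organoids from yMaSCs (3 higher, 5 lower). Of the genes that passed, 60.1% and 59.3% were higher as deposited, 28.8% and 30% at a common median, 50.4% and 50.8% after quantile normalization and 49.8% and 49.4% after cyclic loess, for organoids from yMaSCs and from MaSCs. The V-ATPase calls were 9 and 7 higher after quantile normalization, and 7 and 7 higher with 1 and 0 lower after cyclic loess. With the letter as a replicate block over all arrays, 10 and 9 V-ATPase genes and 7 and 8 carbonic anhydrases passed. Atp6v1b1 and Car6 also passed there in organoids from MaSCs (adjusted p = 0.00604 and 0.0112). LD cells did not share the letter's deviations (r from -0.046 to 0.045), so that block has no footing for them. Between the organoids 0 members passed under all 21 alternatives, the paired fits included. By letter, 10 members passed with a trended, robust spread. Fits without 1 organoid array leave a letter with a single array, so they could not decide the letter calls.

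Signs turned only for differences that had not passed, of which Atp6v0e2 in organoids from yMaSCs was the largest (-0.43) and rested on replicate C. At a common median this gave Atp6v0d2 -0.13 and -0.17, Atp6v1g2 -0.15 and -0.07, and Atp6v1e2 in organoids from MaSCs -0.22. With the mean of all probe sets Atp6v0d2 was -0.027 in each. In organoids from yMaSCs, Atp6v1e2 was 0.072 after quantile normalization, 0.043 after cyclic loess and 0.068 with array weights; in organoids from MaSCs, Car4 was 0.02 and 0.048 after the same scalings. Without both C organoids, Atp6v1e2 was 0.11 in organoids from yMaSCs, Atp6v0e2 0.21 and 0.082, and Atp6v0d2 -0.01 in organoids from MaSCs. Leaving out 1 array gave ranges across 0 of -0.01 to 0.17 (Atp6v0d2), -0.22 to 0.18 (Atp6v0e2), -0.017 to 0.063 (Atp6v1e2) and -0.12 to 0.043 (Car4) in organoids from MaSCs, and -0.78 to 0.21 (Atp6v0e2) and -0.087 to 0.11 (Atp6v1e2) in organoids from yMaSCs. Between the organoids it gave -0.46 to 0.16 for Foxi1 and -0.16 to 0.25 for Atp6v1b1. The causes were not tested.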
